A study of Homo sapiens with 12 samples.

Results

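Untreated cells of 2 human hepatocellular carcinoma lines, HLF and SNU475, were compared gene by gene in 4 of the 12 RNA libraries of the series, 2 libraries of HLF and 2 of SNU475, chosen by their cell line label and their treatment label of control. Both are established lines that are known as poorly differentiated and mesenchymal, and each stands for a single tumour. The HLF controls and the SNU475 controls received no lactate. The other libraries are HLF and SNU475 given 20 mM lactate (added as lactic acid) for 24 hours, 2 libraries each, and another liver cancer line, PLC/PRF/5, without and with lactate, also 2 each. The series profiled gene expression in the 3 lines with and without lactate. In bulk RNA of this kind, fewer cells that express a gene and less of its RNA per cell cannot be told apart. Whether the 2 libraries of a line are separate cultures is not in the labels, and p-values cover only the spread among these libraries.

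Hepatocytes secrete albumin and other plasma proteins and keep an epithelial shape held by cadherins and tight junctions. Cancer lines that lose this state often gain features of mesenchymal cells, such as vimentin, N-cadherin and secretion of fibrillar collagen.

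Total estimated counts were 21781934 and 18326569 in the HLF controls, against 18739823 and 20312109 in the SNU475 controls. Libraries of a line correlated at r = 0.981 for HLF and 0.966 for SNU475 across genes on a log2 scale, against 0.808 to 0.812 between lines. The mitochondrial share stood apart between libraries of one line, at 9.52% and 3.39% of counts in HLF, against 7.996% and 15.1% in SNU475. Among the list of hepatocyte cell markers, ALB, APOA1 and TTR, which encode albumin, apolipoprotein A1 and transthyretin, had at most 0.115 CPM (counts scaled to library size with TMM factors, not divided by gene length) in any of the 4 libraries, so these 3 markers do not match the liver label in either line. The other 2, SERPINA1 (alpha-1-antitrypsin) and FGB, a fibrinogen chain, were called higher in HLF, and the 5 markers summed to 10.1 and 11.6 CPM in HLF, against 2.02 and 1.496 CPM in SNU475 and a mean of 1052 CPM in PLC/PRF/5. FGB had 3.33 and 7.48 CPM in HLF, against 1.46 and 1.09 CPM in SNU475, and the FGB call was lost without HLF library 2 (adjusted p = 0.19) or SNU475 library 1 (adjusted p = 0.064) or SNU475 library 2 (adjusted p = 0.11). All 5 lymphocyte markers were too low to be tested, and the endothelial markers PECAM1 and KDR were at or under 2.53 CPM. PTPRC, the leukocyte antigen CD45, had no count in HLF and 1.24 and 0.575 CPM in SNU475. It belongs to the list of macrophage markers, of which 3 were tested, 1 called higher and 2 lower in HLF. The tested members of that list summed to 197 and 144 CPM in HLF, against 126 and 59.3 CPM in SNU475.

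A gene was called when its adjusted p was below 0.05 in edgeR's quasi-likelihood test over 18355 tested genes, with Benjamini-Hochberg adjustment. Of these, 7163 were called, which is 39.0% of genes tested. The calls split into 3152 genes higher in HLF (17.2%) and 4011 lower in HLF (21.9%). Counts of called list members given below are to be read beside these shares. When a difference beyond 2-fold was tested, 1210 genes were called higher in HLF (6.59%) and 2257 lower (12.3%). The median log2 fold change (HLF over SNU475) of tested genes with a count was 0.0013. TMM scaling itself sets this median near 0, so it does not bear on the split of calls. Without scaling factors the median moved by 0.12, and 3440 genes were called higher and 3472 lower in HLF. In 7155 of the 7163 calls the libraries of one line all lay above those of the other, which also holds for 68.6% of all tested genes.

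**Figure D1:**
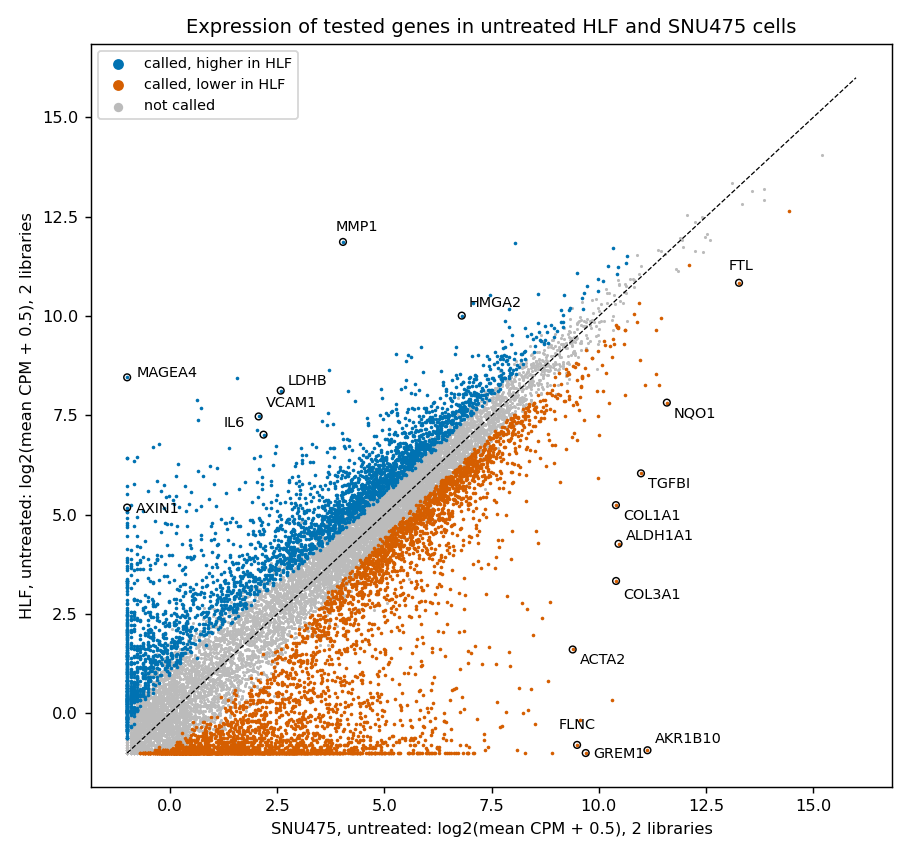
Mean expression of each tested gene in the 2 untreated HLF libraries (vertical axis) against the 2 untreated SNU475 libraries (horizontal axis), as log2 of mean CPM plus 0.5. Blue genes were called higher in HLF (3152), orange genes lower in HLF (4011), and grey genes were not called. The dense orange row along the bottom holds genes of SNU475 with almost no count in HLF.

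Genes that were on in one line and off in the other were mostly SNU475 genes. 141 genes had at least 10 CPM in SNU475 and no count in either HLF library, against 20 in the reverse direction. The largest differences toward SNU475 were in GREM1 (gremlin 1, a secreted antagonist of bone morphogenetic proteins) and IGFBP5 (an insulin-like growth factor binding protein). GREM1 had no count in HLF, against 629 and 1029 CPM in SNU475, and IGFBP5 had none in HLF, against 542 and 423 CPM in SNU475. Against a floor of 3 counts over both HLF libraries, HLF was at least 10770-fold lower for GREM1 and at least 6301-fold lower for IGFBP5. Other protein-coding genes without a count in HLF were ACKR3, a scavenging receptor for CXCL12 (at least 1751-fold lower), the claudin gene CLDN11 (at least 1758-fold), the proteinase inhibitor SERPINB9 (at least 1470-fold), the peroxidase PRDX2 (at least 1175-fold) and PYCR1, which makes proline (at least 1600-fold). PYCR1 and PRDX2 had 242 and 95.5 mean CPM in untreated PLC/PRF/5, so their absence set HLF apart from both other lines in these libraries.

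In the other direction, MAGEA4, a cancer-testis antigen, had 359.5 and 343 CPM in HLF and no count in SNU475, at least 4118-fold higher. The receptor phosphatase gene PTPRD had 71.5 and 101 CPM in HLF and none in SNU475 (at least 1004-fold higher). AJAP1, an adherens junction protein, was at least 999.7-fold higher in HLF, and the ephrin receptors EPHA3 and EPHA5 at least 316-fold and 344-fold. AXIN1, the scaffold of the complex that marks beta-catenin for destruction, had 33.5 and 37.99 CPM in HLF and no count in SNU475, at least 418-fold higher. These genes were absent from both SNU475 libraries and present in both HLF libraries. By the same bound, MAP9, a microtubule-associated protein, was at least 382-fold higher in HLF, SMIM10 252-fold, TFDP3 170.3-fold, FSD1 164-fold, XIRP2 158-fold, B3GALT1 142-fold and CSAG2, a gene with near-identical copies, 148-fold. On the SNU475 side, the tetraspanin TSPAN7 was at least 1590-fold lower in HLF, the methyltransferase BHMT2 1360-fold and the membrane skeleton gene ADD2 1312-fold.

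Abundant genes outside the lists differed as well. Higher in HLF were CD59, an inhibitor of complement, with 1766 and 1219 CPM in HLF, against 303 and 468 CPM in SNU475, the tetraspanin-like TM4SF1 with 1747 and 1233 CPM in HLF, against 164 and 188 CPM in SNU475, and the receptor DCBLD2 with 1282 and 1301 CPM in HLF, against 169 and 95.6 CPM in SNU475. EIF3C, a translation initiation factor with a near-identical copy, SPCS3 of the signal peptidase and MACF1, which links microtubules and actin, were also higher, at log2 fold changes of 1.83, 1.62 and 2.55. Lower in HLF were the small heat shock protein HSPB1, with 465 and 283 CPM in HLF, against 1993 and 3191 CPM in SNU475, and the hydroxylase ASPH, with 348 and 408 CPM in HLF, against 1113 and 1199.6 CPM in SNU475. All 8 were named by a rule that asked for libraries of the 2 lines that do not overlap, which 68.6% of all tested genes met.

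NRF2 is a transcription factor that the adaptor KEAP1 sends for degradation. When freed by oxidative stress or by mutation it binds antioxidant response elements and raises genes for glutathione, thioredoxin, NADPH and iron storage. Of the NRF2 targets and redox genes, 27 of 31 tested members were called, 0 higher and 27 lower in HLF, with a median log2 fold change of -2.62. No other list with tested members had so large a share called in one direction. With any one of the 4 libraries left out, 24 to 26 members were called lower and 0 higher. The core of the antioxidant response element, searched as TGACNNNGC on both strands, lay within the RefSeq promoter window (250 bases before to 50 after the gene start, GRCh38.p14) of 6 of the 24 members with a window, or 25%, and of 13.6% of all 27305 windows. Windows of 3 members that were lower in HLF are printed to show these letters, with each match in capitals (2 in TXNRD1, one on either strand):
TXNRD1, chr12:104215529-104215828, plus strand: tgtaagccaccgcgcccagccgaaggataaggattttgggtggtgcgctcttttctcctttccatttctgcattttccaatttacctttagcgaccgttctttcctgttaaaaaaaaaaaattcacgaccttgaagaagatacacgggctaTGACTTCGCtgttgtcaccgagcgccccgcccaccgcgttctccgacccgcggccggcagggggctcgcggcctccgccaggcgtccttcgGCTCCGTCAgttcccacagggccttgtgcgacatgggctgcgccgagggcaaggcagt
GCLM, chr1:93909381-93909680, minus strand: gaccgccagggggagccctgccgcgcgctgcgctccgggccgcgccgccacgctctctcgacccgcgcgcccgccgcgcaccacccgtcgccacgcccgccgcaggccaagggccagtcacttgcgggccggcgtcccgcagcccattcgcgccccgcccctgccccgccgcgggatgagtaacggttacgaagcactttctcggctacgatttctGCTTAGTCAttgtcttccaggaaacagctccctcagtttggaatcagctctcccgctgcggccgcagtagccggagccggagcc
GSTP1, chr11:67583562-67583861, plus strand: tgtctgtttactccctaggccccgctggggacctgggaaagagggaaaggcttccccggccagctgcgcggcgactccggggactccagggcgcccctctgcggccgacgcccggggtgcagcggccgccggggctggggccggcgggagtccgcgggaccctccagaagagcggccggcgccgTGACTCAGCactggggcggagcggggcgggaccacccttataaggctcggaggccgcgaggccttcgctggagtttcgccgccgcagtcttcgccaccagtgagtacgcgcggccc

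The enzymes of this program differed step by step. NQO1, a quinone reductase and a standard readout of NRF2, had 261 and 190.3 CPM in HLF, against 3515 and 2642 CPM in SNU475 (log2 fold change -3.77 ± 0.23 SE, adjusted p = 6.9e-07). For glutathione synthesis, GCLC, the catalytic subunit of glutamate-cysteine ligase, had 15.8 and 19.8 CPM in HLF, against 248 and 159 CPM in SNU475, and GCLM, its modifier subunit, had 61.1 and 96.5 CPM in HLF, against 387 and 609 CPM in SNU475. Both SNU475 libraries lay far above both HLF libraries for these enzymes. The cystine importer SLC7A11 had 30.1 and 33.4 CPM in HLF, against 166 and 228 CPM in SNU475 (log2 fold change -2.63 ± 0.34 SE, adjusted p = 1.2e-04). In the thioredoxin branch, TXNRD1, thioredoxin reductase, had 436 and 522 CPM in HLF, against 1755 and 2237 CPM in SNU475, and SRXN1, sulfiredoxin, had 104 and 131 CPM in HLF, against 742 and 688 CPM in SNU475. The pentose phosphate enzyme PGD, which supplies NADPH, had 293 and 225 CPM in HLF, against 1621 and 1531 CPM in SNU475 (log2 fold change -2.61 ± 0.22 SE, adjusted p = 4.7e-06). FTL, the ferritin light chain, had 2009 and 1650.4 CPM in HLF, against 12799 and 6976 CPM in SNU475 (log2 fold change -2.43 ± 0.34 SE, adjusted p = 2.0e-04). The heavy chain FTH1 was also called lower in HLF (log2 fold change -0.82) and HMOX1, heme oxygenase 1, likewise (-0.92), but the FTH1 call was lost without HLF library 2 (adjusted p = 0.21) or SNU475 library 1 (adjusted p = 0.29) and the HMOX1 call was lost without HLF library 1 (adjusted p = 0.077) or HLF library 2 (adjusted p = 0.071) or SNU475 library 2 (adjusted p = 0.11).

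The widest gaps were in detoxifying reductases and transferases. AKR1B10, an aldo-keto reductase often raised in liver cancer, had 0.0497 and 0 CPM in HLF, against 2634 and 1866 CPM in SNU475, which is a single count in HLF and a ratio of 88140 SNU475 over HLF, with an exact 95% counting interval of 15820 to 3481000. AKR1C3 had 0.994 and 0.527 CPM in HLF, against 1643 and 883 CPM in SNU475, and AKR1C2 had no count in HLF and 431 and 190.5 CPM in SNU475. The AKR1C genes are near-identical copies, so the split of reads among them is uncertain. ALDH1A1, a retinal and aldehyde dehydrogenase, had 18.4 and 19.1 CPM in HLF, against 2176 and 643 CPM in SNU475 (log2 fold change -6.23 ± 0.60 SE, adjusted p = 1.6e-05). The 2 SNU475 libraries stood far apart for this gene, yet both lay above HLF. GSTP1, a glutathione transferase, had 345 and 269.9 CPM in HLF, against 2664 and 2800 CPM in SNU475, and GSTM1, whose close paralogues can share its reads, had no count in HLF and 83.4 and 50.97 CPM in SNU475. The 2 regulators themselves were not called: NFE2L2, which encodes NRF2, had 92.1 and 92.1 CPM in HLF, against 119 and 131 CPM in SNU475, and KEAP1 had 54.9 and 63.5 CPM in HLF, against 56.5 and 52.5 CPM in SNU475, although DESeq2 called NFE2L2 lower in HLF (adjusted p = 0.029). GPX2, with no count in either line, and the efflux pump ABCC2, at a log2 fold change of -0.01, were the other members not called.

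Of the aldehyde dehydrogenases, 8 of 17 tested members were called, 0 higher and 8 lower in HLF. Besides ALDH1A1, this held for ALDH2, the mitochondrial enzyme that clears acetaldehyde, with 0 and 0.105 CPM in HLF, against 129 and 123 CPM in SNU475, for ALDH1A3 (log2 fold change -4.08 ± 0.49 SE, adjusted p = 7.3e-05) and for ALDH5A1 (log2 fold change -2.83 ± 0.38 SE, adjusted p = 1.7e-04). ALDH2 had only 2 counts in HLF, a ratio of 2461 SNU475 over HLF, with an exact 95% counting interval of 681 to 20330.

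**Figure D2:**
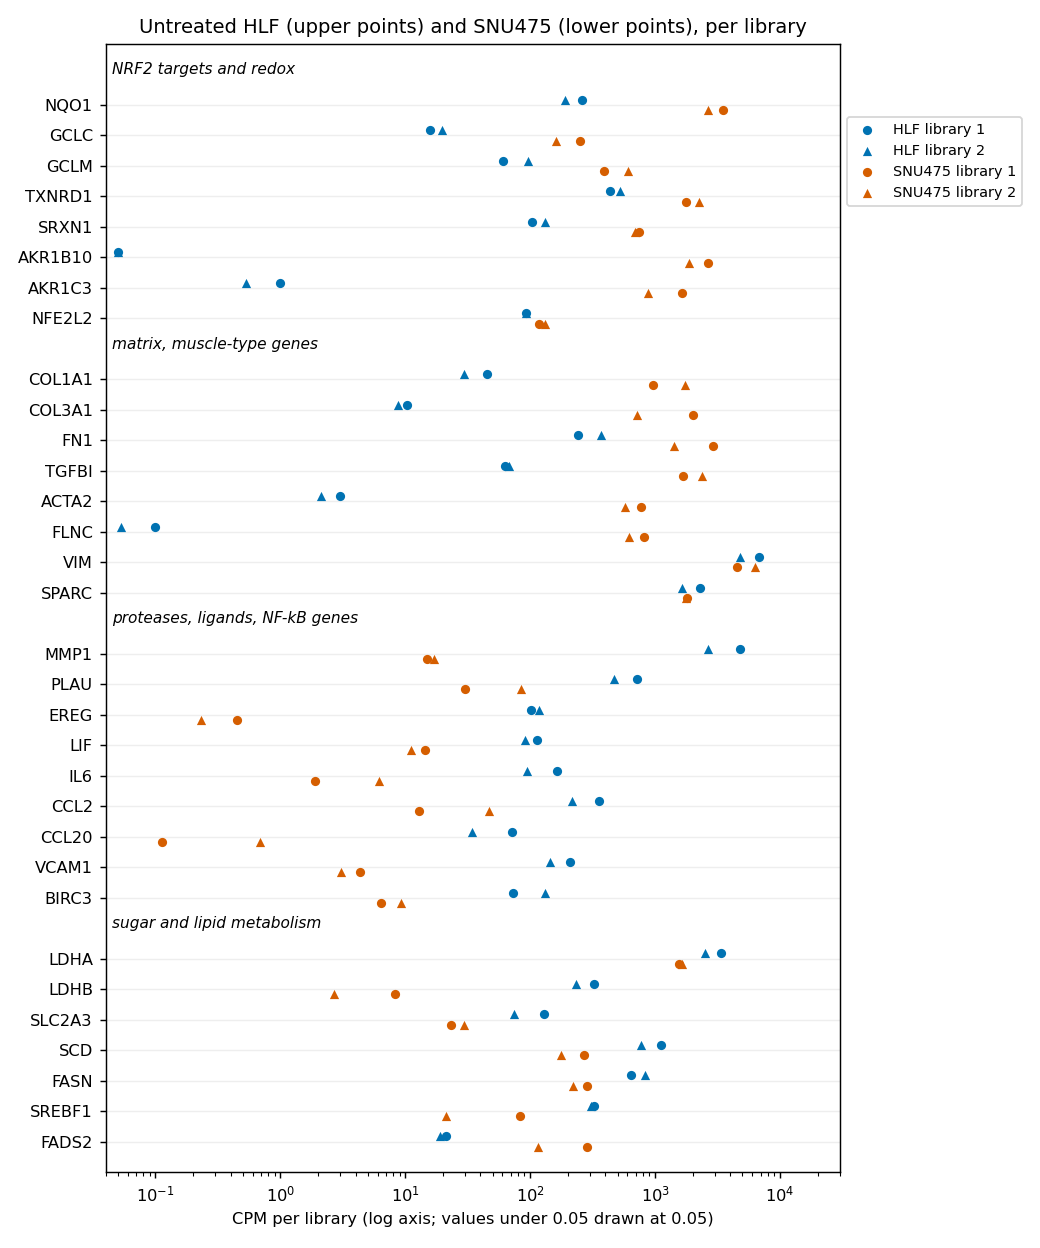
CPM (log axis) of selected genes in each untreated library, with HLF in blue above SNU475 in orange in each row and circles and triangles for library 1 and library 2. NRF2 target genes and matrix genes lie to the right in SNU475, NF-kB genes and ligands lie to the right in HLF, and NFE2L2, VIM and SPARC lie close together in both lines.

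Fibrillar collagen is made by mesenchymal cells as triple helices of type I, III and V chains, and it is organised by small proteoglycans and cross-linked by lysyl oxidases. Matrix genes formed the second large group that was lower in HLF. Of the collagen chains, 22 of 30 tested members were called, 4 higher and 18 lower in HLF, with a median log2 fold change of -3.37. COL1A1, the main chain of type I collagen, had 45.3 and 29.4 CPM in HLF, against 955 and 1747 CPM in SNU475 (log2 fold change -5.18 ± 0.41 SE, adjusted p = 3.2e-06). COL3A1, the type III chain, had 10.4 and 8.75 CPM in HLF, against 1993 and 714 CPM in SNU475 (log2 fold change -7.14 ± 0.76 SE, adjusted p = 2.9e-05), and COL6A3 had 0.447 and 0.211 CPM in HLF, against 222 and 511 CPM in SNU475. Both HLF libraries lay below both SNU475 libraries for each of these chains, while SPARC, a collagen-binding matricellular protein, had 2291 and 1631 CPM in HLF, against 1786 and 1757 CPM in SNU475 and was not called. The basement membrane chains of type IV split: COL4A2 was lower in HLF (log2 fold change -4.32), whereas COL4A1, which shares a promoter region with it, had 337 and 468 CPM in HLF, against 425 and 462 CPM in SNU475 and was not called. In the opposite direction, COL11A1 and COL17A1 were higher in HLF, with log2 fold changes of 3.78 and 5.62. In the collagen chains list, single libraries moved counts to 2 members called higher without HLF library 1 or SNU475 library 1.

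Of the elastic fibre and matricellular genes, 28 of 33 tested members were called, 5 higher and 23 lower in HLF, with a median log2 fold change of -2.47. Fibrillin 1 (FBN1) had 3.23 and 4.22 CPM in HLF, against 76.7 and 153 CPM in SNU475, fibulin 2 (FBLN2) had 0.199 and 0.105 CPM in HLF, against 53.9 and 34.5 CPM in SNU475, and the proteoglycan biglycan (BGN) had 0.0994 and 0 CPM in HLF, against 52.3 and 96.4 CPM in SNU475. LTBP4, which binds latent TGF-beta, and EFEMP2, a fibulin needed for elastic fibres, went the other way, at log2 fold changes of 2.21 and 3.999. FN1, fibronectin, had 242 and 371 CPM in HLF, against 2895 and 1426 CPM in SNU475 (log2 fold change -2.82 ± 0.50 SE, adjusted p = 0.0010), and TGFBI, a matrix protein induced by TGF-beta, had 63.3 and 67.4 CPM in HLF, against 1674 and 2376 CPM in SNU475 (log2 fold change -4.95 ± 0.33 SE, adjusted p = 1.0e-06). Among laminins and basement membrane genes, 6 of 15 tested members were called, 0 higher and 6 lower in HLF, a share of 40.0% beside 39.0% of all tested genes. LAMA5 and NID2 were among them, at log2 fold changes of -3.98 and -8.51. With any single untreated library left out, fewer members of the elastic fibre and matricellular list were called, both higher and lower. Its median then lay between -2.97 (without SNU475 library 1) and -2.30 (without HLF library 2). For the laminins and basement membrane list, counts were 2 members called higher without SNU475 library 1.

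Genes of the actin cytoskeleton and of muscle were called both ways, and those named here are examples. ACTA2, smooth muscle actin, had 2.98 and 2.11 CPM in HLF, against 769.5 and 573 CPM in SNU475 (log2 fold change -8.04 ± 0.38 SE, adjusted p = 1.4e-07), CNN1, calponin, had 3.08 and 1.63 CPM in HLF, against 154 and 106 CPM in SNU475, and FLNC, the muscle filamin, had 0.0994 and 0.0527 CPM in HLF, against 820.4 and 621 CPM in SNU475. These 3 genes were close to background in HLF and abundant in SNU475. ACTG2 had 0.497 and 0.632 CPM in HLF, against 374 and 277 CPM in SNU475, and cardiac actin ACTC1 had no count in HLF and 52.98 and 121 CPM in SNU475. Of the list of caveolar and actin genes, 12 of 29 tested members were called, 2 higher and 10 lower in HLF, a share of 41.4% beside 39.0% of all tested genes, and CAV1, CAVIN1, FLNA and ACTG1 had log2 fold changes of -0.28, -0.16, 0.07 and -0.02 with no call. TPM2, a tropomyosin, and MYH9, a non-muscle myosin, were higher in HLF (3.79 and 1.37). Of the 5 stellate cell and fibroblast markers, 4 were lower in HLF (COL1A1, COL3A1, DCN and LUM). COL1A1 and COL3A1 are the collagen chains given above, so this list is not separate from the collagen list. The 5 markers summed to 82.6 and 65.6 CPM in HLF, against 3052 and 2536 CPM in SNU475. PDGFRB, the other marker, was not called, with 22.8 and 25.2 CPM in HLF, against 17.1 and 29.6 CPM in SNU475. The part of these markers in the result was not tested.

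TGF-beta and bone morphogenetic proteins signal through SMAD factors and are held in check by secreted antagonists and inhibitory SMADs. Of 39 tested members, 25 were called, 4 higher and 21 lower in HLF, in this list, with a median log2 fold change of -1.16. Among ligands, TGFB2 had 32.7 and 30.7 CPM in HLF, against 118 and 195 CPM in SNU475 (log2 fold change -2.30 ± 0.48 SE, adjusted p = 0.0029), TGFB3 was lower in HLF (log2 fold change -3.66), and BMP4 and BMP6 had no count in HLF, at least 618-fold and 165-fold lower. TGFB1 was not called, at 539 and 315 CPM in HLF, against 462 and 473 CPM in SNU475. Of the feedback genes, BAMBI, SKIL and SMAD9 were lower in HLF (-1.85, -1.81 and -3.12), and ID1 and SMAD7 were not called (-0.13 and -0.14). GDF15, a stress cytokine of the family, was higher in HLF, with 138 and 53.6 CPM in HLF, against 18.7 and 5.41 CPM in SNU475. Leaving out single libraries gave 2 members called higher without HLF library 2 in the TGF-beta and BMP signalling list.

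Proteases that cut the matrix did not follow one direction: 14 of 30 tested members were called, 5 higher and 9 lower in HLF. MMP1, interstitial collagenase, had 4804 and 2663 CPM in HLF, against 14.8 and 16.9 CPM in SNU475 (log2 fold change 7.88 ± 0.56 SE, adjusted p = 1.7e-06). Among genes called higher in HLF beyond 2-fold, MMP1 had the highest mean CPM in HLF. PLAU, urokinase, had 717 and 466 CPM in HLF, against 30.04 and 84.97 CPM in SNU475 (log2 fold change 3.36 ± 0.53 SE, adjusted p = 5.0e-04), with both HLF libraries above both SNU475 libraries. MMP16 had 29.96 and 36.3 CPM in HLF and no count in SNU475. MMP2, gelatinase A, had 27.1 and 12.9 CPM in HLF, against 180.4 and 247 CPM in SNU475, and TIMP3, a matrix-bound inhibitor, had 0.547 and 0.632 CPM in HLF, against 27.5 and 99.6 CPM in SNU475, both lower in HLF. Integrin subunits were called in both directions, 5 higher and 5 lower in HLF of 19 tested: ITGA3 and ITGA6, which bind laminin, were higher (1.35 and 1.77), and ITGA4, ITGA8 and ITGA11 lower, ITGA4 with 18.6 and 25.2 CPM in HLF, against 168 and 116 CPM in SNU475. In the integrins list, single libraries moved counts to 3 members called higher without HLF library 1.

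Both lines carried vimentin, N-cadherin and simple epithelial keratins. VIM, vimentin, had 6784 and 4749.9 CPM in HLF, against 4559 and 6279.9 CPM in SNU475, and CDH2, N-cadherin, had 416 and 436 CPM in HLF, against 468 and 378 CPM in SNU475, neither of them called. KRT8 had 3539.7 and 2823 CPM in HLF, against 6284 and 3466 CPM in SNU475, and KRT18 had 2230 and 1605 CPM in HLF, against 2115 and 1492 CPM in SNU475, also without a call, so the keratin pair of hepatocytes was present in both lines, although KRT8 was called lower in HLF without SNU475 library 2 (adjusted p = 0.017). KRT19, a bile duct keratin, had 0.0994 and 0 CPM in HLF, against 101 and 47.4 CPM in SNU475, a ratio of 1461 SNU475 over HLF, with an exact 95% counting interval of 404 to 12070. Of the 5 tested cholangiocyte markers, KRT19 among them, 1 was called higher and 1 lower in HLF, and 3 were not called. DSP, the desmosome plaque protein desmoplakin, had 0.0497 and 0.0527 CPM in HLF, against 83.97 and 70.9 CPM in SNU475, a ratio of 1515 SNU475 over HLF, with an exact 95% counting interval of 419 to 12520. Tight junction genes were called both ways: CLDN1 and OCLN were higher in HLF, with 188 and 185 CPM in HLF, against 7.71 and 16.9 CPM in SNU475 for CLDN1 and log2 fold changes of 3.93 and 3.08, and CLDN4 had 1.24 and 0.632 CPM in HLF, against 50.7 and 33.8 CPM in SNU475. CDH1, E-cadherin, had 0.348 and 0.263 CPM in HLF, against 6.81 and 0.863 CPM in SNU475, both low beside a mean of 127 CPM in PLC/PRF/5. It was called lower in HLF, but the CDH1 call was lost without HLF library 1 (adjusted p = 0.10) or HLF library 2 (adjusted p = 0.12) or SNU475 library 1 (adjusted p = 0.39). Over the list of epithelial markers, 12 of 25 tested members were called, 4 higher and 8 lower in HLF. Left-out libraries changed the epithelial markers list to 2 members called higher and 5 members called lower without HLF library 2 and 5 members called lower without SNU475 library 1.

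The transcription factors tied to epithelial-mesenchymal transition split in one direction: 12 of 17 tested members were called, 0 higher and 12 lower in HLF, with a median log2 fold change of -3.21 (-3.09 with the 4 members without a count in one line set at their bounds). SNAI2, called Slug, had 0.248 and 0.316 CPM in HLF, against 30.2 and 90.95 CPM in SNU475 (log2 fold change -7.72 ± 0.69 SE, adjusted p = 9.1e-06). TWIST2 and PRRX1 had no count in HLF, at least 416-fold and 84.5-fold lower. TWIST1 had 16.6 and 15.9 CPM in HLF, against 42.4 and 41.2 CPM in SNU475, and the T-box factors TBX2 and TBX3 were lower in HLF (-5.96 and -3.21). ZEB2 and SNAI1 were not called, SNAI1 with 26.3 and 17.5 CPM in HLF, against 20.02 and 29.2 CPM in SNU475. Of the mesenchymal marker list, 16 of 22 tested members were called, 5 higher and 11 lower in HLF, with CD44, NT5E and MME among those higher in HLF (1.57, 1.73 and 3.88) and POSTN, THY1, CDH11 and PDPN among those lower. POSTN, periostin, had 0.149 and 0 CPM in HLF, against 144 and 94.5 CPM in SNU475, and PDPN, podoplanin, had no count in HLF and 45.2 and 66.2 CPM in SNU475. For the EMT transcription factors list, counts were 1 member called higher without SNU475 library 2.

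HOX genes lie in 4 clusters, and cells keep a combination of them that reflects position along the body axis, with high paralogue numbers for posterior and distal parts. Of 37 tested members, 25 were called, 1 higher and 24 lower in HLF, among HOX genes, with a median log2 fold change of -2.75 (-2.70 with the 10 members without a count in one line set at their bounds). In paralogue groups 9 to 13, 14 of 15 tested genes were called lower in HLF, 0 were called higher and 10 had no count in HLF, with a summed mean of 14.9 CPM in HLF against 167 CPM in SNU475. In groups 1 to 8, 10 of 22 were called lower and 1 higher, and the sums were 131 CPM in HLF and 203 CPM in SNU475. HOXC13 had no count in HLF and 29.7 and 24.6 CPM in SNU475, HOXC12 none and 22.1 and 27.2 CPM, and HOXD11 none and 18.6 and 20.1 CPM. By cluster, 8 of 8 tested HOXD genes, 7 of 9 HOXC genes, 6 of 11 HOXA genes and 3 of 9 HOXB genes were called lower in HLF. The HOXD genes include HOXD1, HOXD3, HOXD4 and HOXD8 of the lower paralogue groups, and neither split was tested. However, the HOXD3 call was lost without HLF library 1 (adjusted p = 0.14) or SNU475 library 1 (adjusted p = 0.060) or SNU475 library 2 (adjusted p = 0.079). HOXB9 was the only tested gene of groups 9 to 13 that was not called, with 9.49 and 9.48 CPM in HLF, against 8.94 and 6.62 CPM in SNU475. HOXC8, at 29.96 and 27.9 CPM in HLF, against 11.4 and 19.8 CPM in SNU475, was called higher in HLF with all libraries, but the HOXC8 call was lost without HLF library 1 (adjusted p = 0.12) or HLF library 2 (adjusted p = 0.075) or SNU475 library 1 (adjusted p = 0.19). The antisense RNA gene HOTAIR, which lies in the HOXC cluster, had 0.0994 and 0 CPM in HLF, against 2.36 and 1.27 CPM in SNU475, and the HOTAIR call was lost without HLF library 2 (adjusted p = 0.087). The libraries were stranded, but whether reads were counted by strand is not stated. It is thus not known whether reads of HOTAIR were kept apart from those of genes opposite it.

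**Figure D3:**
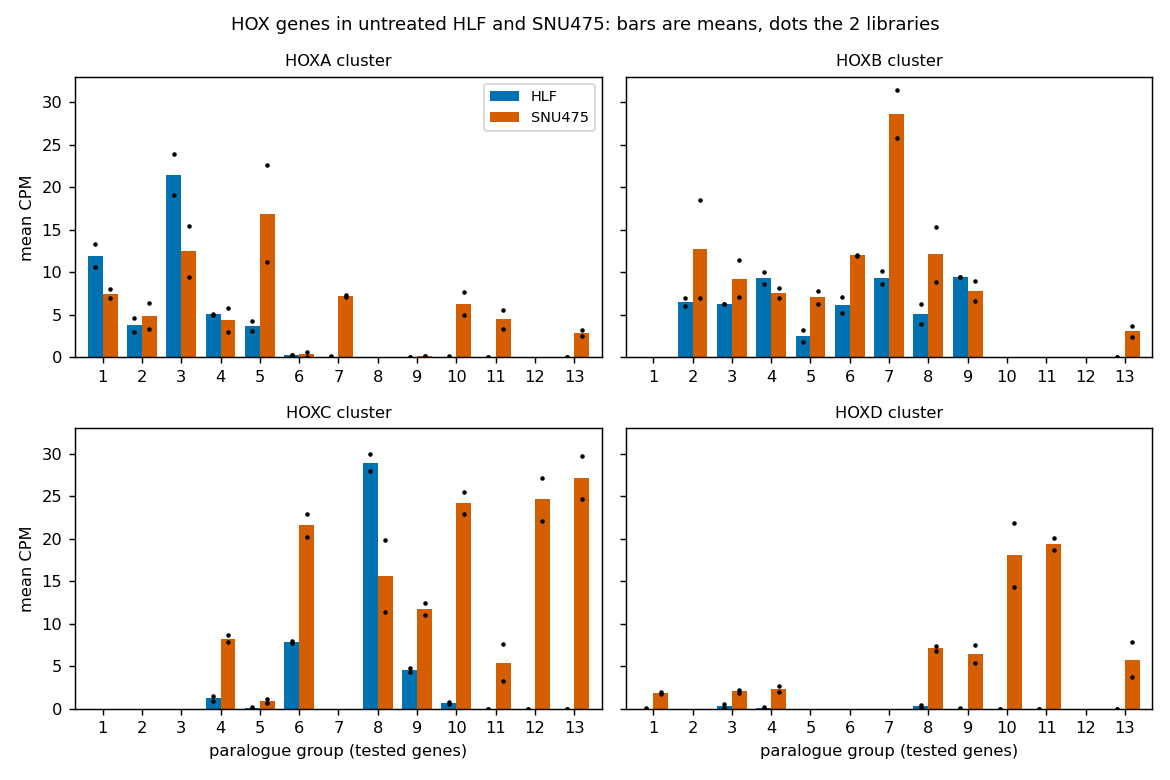
Mean CPM of the tested HOX genes in untreated HLF (blue) and SNU475 (orange), by cluster and paralogue group, with dots for the 2 libraries. In the HOXC and HOXD clusters HOXC12, HOXC13, HOXD10 and HOXD11 had no count in HLF, while HOXB9 is similar in both lines.

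In Wnt signalling, beta-catenin with TCF/LEF factors turns on feedback genes such as AXIN2, RNF43 and SP5. Of 39 tested members, 27 were called, 4 higher and 23 lower in HLF, in this list, with a median log2 fold change of -1.86. Of these target and feedback genes, AXIN2 had 0.348 and 0.685 CPM in HLF, against 19.3 and 9.03 CPM in SNU475 (log2 fold change -4.77 ± 0.52 SE, adjusted p = 3.9e-05), and RNF43, LEF1, SP5 and NKD2 had no count in HLF, at least 94.1-fold, 80.4-fold, 20.4-fold and 23.4-fold lower. TCF7 was lower in HLF as well (-3.29), whereas ZNRF3 and NKD1 were not called. With the deposited effective lengths as offsets, edgeR called ZNRF3 higher in HLF (log2 fold change 0.71, adjusted p = 0.032). AXIN1, given above, had no count in SNU475, and a link between it and these genes was not tested. Among ligands, WNT5A had 30.01 and 41.2 CPM in HLF, against 144 and 139 CPM in SNU475 and WNT5B had 191 and 151 CPM in HLF, against 19.7 and 27.4 CPM in SNU475, so these 2 close paralogues differed in opposite directions. The secreted antagonist SFRP1 had no count in HLF (at least 318-fold lower), and the receptor ROR2 had 0.646 and 0.474 CPM in HLF, against 24.8 and 26.5 CPM in SNU475. Of the Notch list, 10 of 18 tested members were called, 3 higher and 7 lower in HLF. NOTCH3, JAG2 and HEY1 were lower (-7.58, -5.09 and -4.21), and NOTCH2 and the glycosyltransferase LFNG were higher (1.07 and 5.58). Of the YAP and Hippo list, 11 of 24 tested members were called, 4 higher and 7 lower in HLF, with YAP1 not called (-0.42), but YAP1 was called lower in HLF without HLF library 2 (adjusted p = 0.013). Leaving out single libraries gave 4 members called lower without HLF library 1 or SNU475 library 2 in the Notch signalling list. In the Hippo pathway and YAP targets list, single libraries moved counts to 4 members called lower without HLF library 1 and 2 members called higher without HLF library 2 or SNU475 library 1.

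NF-kB factors are released from inhibitors by inflammatory signals and switch on chemokines, adhesion molecules and survival genes. More of these genes were called higher than lower in HLF: 21 of 35 tested members were called, 15 higher and 6 lower in HLF, with a median log2 fold change of 0.93. The kappa-B consensus, the NF-kB binding motif searched on both strands, lay in the promoter windows of 14 of the 28 members with a window (50%). It lay in 6.64% of the windows of tested genes and in 5.72% of all windows. Of the 14 members with a match, 7 were called. A match is a description of letters and says nothing of binding in these cells. Windows of 4 members that were higher in HLF follow, with matches in capitals (2 overlapping ones in CXCL1):
IL6, chr7:22726950-22727249, plus strand: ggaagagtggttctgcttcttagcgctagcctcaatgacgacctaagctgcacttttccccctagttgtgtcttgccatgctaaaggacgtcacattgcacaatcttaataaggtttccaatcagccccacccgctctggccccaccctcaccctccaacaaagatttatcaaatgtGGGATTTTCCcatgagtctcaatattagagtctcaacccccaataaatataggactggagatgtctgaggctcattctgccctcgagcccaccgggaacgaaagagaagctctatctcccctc
CCL20, chr2:227813592-227813891, plus strand: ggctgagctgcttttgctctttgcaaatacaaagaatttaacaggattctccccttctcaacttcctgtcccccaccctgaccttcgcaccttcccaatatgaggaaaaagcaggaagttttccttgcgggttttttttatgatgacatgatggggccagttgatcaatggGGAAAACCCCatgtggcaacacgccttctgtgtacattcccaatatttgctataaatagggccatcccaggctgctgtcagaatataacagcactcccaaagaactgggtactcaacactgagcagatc
VCAM1, chr1:100719492-100719791, plus strand: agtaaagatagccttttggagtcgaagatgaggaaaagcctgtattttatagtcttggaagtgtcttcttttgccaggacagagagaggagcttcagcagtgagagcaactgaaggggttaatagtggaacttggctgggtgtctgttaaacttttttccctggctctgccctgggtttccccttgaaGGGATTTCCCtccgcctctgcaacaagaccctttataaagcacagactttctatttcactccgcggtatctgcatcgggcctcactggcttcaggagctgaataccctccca
CXCL1, chr4:73869143-73869442, plus strand: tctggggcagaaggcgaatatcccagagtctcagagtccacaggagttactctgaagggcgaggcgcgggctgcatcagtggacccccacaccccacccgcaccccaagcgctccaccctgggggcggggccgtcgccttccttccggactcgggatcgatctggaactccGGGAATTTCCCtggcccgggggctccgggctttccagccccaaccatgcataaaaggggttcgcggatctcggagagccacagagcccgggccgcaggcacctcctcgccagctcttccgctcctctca

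IL6, a cytokine of the acute phase response, had 164 and 93.8 CPM in HLF, against 1.91 and 6.16 CPM in SNU475 (log2 fold change 4.997 ± 0.61 SE, adjusted p = 1.2e-04). The chemokine CCL2, which draws monocytes, had 356 and 217 CPM in HLF, against 12.9 and 46.7 CPM in SNU475 (log2 fold change 3.27 ± 0.55 SE, adjusted p = 7.7e-04), and CCL20 had 71.95 and 33.99 CPM in HLF, against 0.112 and 0.690 CPM in SNU475 (log2 fold change 7.03 ± 0.68 SE, adjusted p = 1.5e-05). For each of these cytokines both HLF libraries lay above both SNU475 libraries, and HLF library 1 lay above HLF library 2. CCL5, CXCL1, CXCL2 and CXCL5 were higher in HLF with log2 fold changes of 5.13, 3.31, 3.07 and 2.37. VCAM1, an adhesion molecule for leukocytes, had 209.8 and 145 CPM in HLF, against 4.33 and 3.05 CPM in SNU475 (log2 fold change 5.58 ± 0.43 SE, adjusted p = 2.7e-06), and the survival gene BIRC3 had 72.5 and 131 CPM in HLF, against 6.41 and 9.32 CPM in SNU475. The inhibitor genes NFKBIA and TNFAIP3 were not called, at 69.4 and 64.2 CPM in HLF, against 58.3 and 56.7 CPM in SNU475 for NFKBIA. CXCL8 and ICAM1 were not called either (0.39 and 0.43). On the other side, CXCL12 had no count in HLF and 32.7 and 26.5 CPM in SNU475, and its scavenger receptor ACKR3, given above, had the same pattern. Left-out libraries changed the inflammatory and NF-kB genes list to 1 member called lower without HLF library 2.

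Growth factor ligands were more often called higher in HLF: 24 of 32 tested members were called, 15 higher and 9 lower in HLF, with a median log2 fold change of 0.68. The median was 0.26 without SNU475 library 2 and 1.11 over members with a mean of at least 1 CPM. With lactate, 10 members were called higher and 12 lower in HLF. Of the ligands of the EGF receptor, EREG had 101 and 117 CPM in HLF, against 0.450 and 0.230 CPM in SNU475 (log2 fold change 8.30 ± 0.50 SE, adjusted p = 6.0e-07) and AREG had 18.8 and 11.1 CPM in HLF, against 0.562 and 0.173 CPM in SNU475, whereas EGF and TGFA were lower in HLF (-4.51 and -3.18). The ligands of this receptor thus differed in both directions. LIF, a ligand of the IL6 family, had 113 and 91.6 CPM in HLF, against 14.5 and 11.1 CPM in SNU475, VEGFC, a lymphatic growth factor, had 118 and 63.1 CPM in HLF, against 3.99 and 11.9 CPM in SNU475, and PDGFB had 31.01 and 18.1 CPM in HLF, against 2.81 and 1.21 CPM in SNU475. Hepatocyte growth factor HGF had no count in HLF and 2.14 and 1.21 CPM in SNU475. Among receptor tyrosine kinases the list split evenly, 12 higher and 11 lower in HLF of 32 tested. EGFR had 229.9 and 283 CPM in HLF, against 69.9 and 104 CPM in SNU475 (log2 fold change 1.56 ± 0.22 SE, adjusted p = 2.2e-04), and MET, the HGF receptor, had 311 and 387 CPM in HLF, against 134 and 118 CPM in SNU475 (log2 fold change 1.47 ± 0.20 SE, adjusted p = 1.9e-04). KIT and EPHA2 were higher in HLF (3.97 and 1.72), FGFR2 had no count in HLF (at least 109-fold lower), and IGF1R was lower (-1.72).

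Feedback genes of MAP kinase signalling were called both ways. SPRY2 had 19.5 and 24.2 CPM in HLF, against 3.82 and 3.11 CPM in SNU475 (log2 fold change 2.65 ± 0.34 SE, adjusted p = 1.1e-04), DUSP7 and SPRED3 were higher (1.76 and 2.75), and PHLDA1 had 110.3 and 130.1 CPM in HLF, against 22.9 and 46.8 CPM in SNU475. The MAP kinase phosphatase DUSP2 had 0.149 and 0.0527 CPM in HLF, against 6.19 and 9.66 CPM in SNU475, and DUSP8 and SPRED1 were lower too (-1.82 and -1.12), though the SPRED1 call was lost without HLF library 1 (adjusted p = 0.055). Over the list of AP-1, EGR and MAP kinase feedback genes, 15 of 29 tested members were called, 9 higher and 6 lower in HLF, and FOS, JUN, JUNB and EGR1 were not called, JUN with 159 and 161 CPM in HLF, against 144 and 227 CPM in SNU475. For the AP-1, EGR and MAP kinase feedback list, counts were 3 members called lower without HLF library 1. Among cytokine receptors, OSMR, IL4R and IL6R were higher in HLF (1.502, 2.58 and 1.73), and IL7R and TNFRSF9 were lower (-3.77 and -3.11).

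Interferon-stimulated genes answer type I interferon or sensed nucleic acid through STAT and IRF factors. Of 33 tested members, 19 were called, 17 higher and 2 lower in HLF, among them, with a median log2 fold change of 1.48 (2.34 without SNU475 library 1 and 0.83 without SNU475 library 2). IFI6 had 361 and 647 CPM in HLF, against 73.7 and 23.3 CPM in SNU475 (log2 fold change 3.38 ± 0.63 SE, adjusted p = 0.0015), MX2, a GTPase active against viruses, had 80.8 and 98.7 CPM in HLF, against 11.9 and 5.01 CPM in SNU475 (log2 fold change 3.40 ± 0.45 SE, adjusted p = 2.1e-04), and OAS3, a sensor of double-stranded RNA, had 194 and 375 CPM in HLF, against 46.1 and 36.99 CPM in SNU475 (log2 fold change 2.78 ± 0.42 SE, adjusted p = 3.6e-04). OASL and CMPK2 were near background in SNU475, OASL at 16.3 and 12.1 CPM in HLF, against 0.394 and 0 CPM in SNU475. BST2 and IRF7 were lower in HLF, BST2 with 6.26 and 10.96 CPM in HLF, against 76.5 and 37.4 CPM in SNU475 and IRF7 with no count in HLF and 5.06 and 2.70 CPM in SNU475. STAT2 and IRF9 were not called, STAT2 with 35.98 and 36.1 CPM in HLF, against 45.8 and 25.5 CPM in SNU475, but IRF9 was called higher in HLF without SNU475 library 1 (adjusted p = 0.049). The 2 SNU475 libraries did not match in this group: 29 of 29 members with at least 1 mean CPM in SNU475 were higher in its library 1 than in its library 2, by a median of 1.17 on the log2 scale, against 9 of 32 between the HLF libraries. Leaving out single libraries gave 11 members called higher and 5 members called lower without SNU475 library 2 in the interferon-stimulated genes list.

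The same gap between the SNU475 libraries ran through antigen presentation, where 23 of 27 members were higher in SNU475 library 1. HLA-B had 281 and 271 CPM in HLF, against 1563 and 439 CPM in SNU475, and B2M, the shared light chain of class I molecules, had 1067 and 787 CPM in HLF, against 2522 and 1256 CPM in SNU475. They were called lower in HLF, but the HLA-B call was lost without HLF library 1 (adjusted p = 0.098) or HLF library 2 (adjusted p = 0.11) or SNU475 library 1 (adjusted p = 0.32) and the B2M call was lost without HLF library 2 (adjusted p = 0.13) or SNU475 library 1 (adjusted p = 0.22). Counts of HLA genes are uncertain because their alleles and copies are similar in sequence. Over the list, 11 of 27 tested members were called, 5 higher and 6 lower in HLF, a share of 40.7% beside 39.0% of all tested genes. In the antigen presentation and checkpoint ligands list, single libraries moved counts to 3 members called lower without HLF library 1, 1 member called lower without HLF library 2, 2 members called lower without SNU475 library 1 and 10 members called lower without SNU475 library 2. The firmer differences lay elsewhere: ERAP2, a peptide-trimming aminopeptidase, had 137 and 141 CPM in HLF, against 2.70 and 4.49 CPM in SNU475 (log2 fold change 5.27 ± 0.33 SE, adjusted p = 7.4e-07), HLA-DRA had no count in HLF and 22.3 and 7.48 CPM in SNU475, and the ligands of activating lymphocyte receptors MICA, MICB and PVR were higher in HLF (1.84, 1.53 and 1.56).

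Plasma protein genes of hepatocytes summed to 78.6 and 73.6 CPM in HLF, against 301 and 73.3 CPM in SNU475 and a mean of 6285 CPM in PLC/PRF/5. The SNU475 libraries stood apart here: 7 of 8 members with at least 1 mean CPM in SNU475 were higher in its library 1, by a median of 1.86 on the log2 scale. Of the 25 tested, 6 had no count in any of the 4 libraries, and 2 were called higher and 6 lower in HLF. SERPINA1, alpha-1-antitrypsin, had 6.81 and 4.11 CPM in HLF, against 0.562 and 0.288 CPM in SNU475, and AMBP, a precursor of plasma glycoproteins, had 0.0497 and 0.158 CPM in HLF, against 44.04 and 11.7 CPM in SNU475. In PLC/PRF/5 their means were 302 and 255 CPM. Left-out libraries changed the hepatocyte secreted proteins list to 1 member called higher without HLF library 2, SNU475 library 1 or SNU475 library 2. Of the hepatic transcription factors, 13 of 23 tested members were called, 4 higher and 9 lower in HLF. Over all tested members the median log2 fold change was -1.16, with -0.44 without SNU475 library 1 and -1.54 without SNU475 library 2. HNF4A, the master regulator of hepatocyte genes, had no count in HLF and only 0.844 and 2.42 CPM in SNU475, FOXA1 had 0.248 and 0.105 CPM in HLF, against 36.5 and 10.99 CPM in SNU475, FOXA2 had 5.37 and 4.95 CPM in HLF, against 0.0562 and 0.575 CPM in SNU475, and RXRA, the shared partner of nuclear receptors, had 11.4 and 11.9 CPM in HLF, against 109 and 81.98 CPM in SNU475. Thus FOXA1 and FOXA2, close paralogues, were called in opposite directions. Among enzymes, ASS1 of the urea cycle had 0.547 and 0.158 CPM in HLF, against 117 and 56.5 CPM in SNU475, GLUL, glutamine synthetase, had 6.71 and 9.70 CPM in HLF, against 80.3 and 104 CPM in SNU475, and CYP1B1 had 418 and 359 CPM in HLF, against 54 and 64.6 CPM in SNU475. The bilirubin transferase UGT1A1 had no count in HLF and 159 and 27.5 CPM in SNU475, a pair of libraries that differ by several fold, and UGT1A genes share exons, so their split is uncertain.

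Oncofetal genes differed in both directions. HMGA2, a chromatin protein of embryonic growth, had 918 and 1145 CPM in HLF, against 81.4 and 141 CPM in SNU475 (log2 fold change 3.21 ± 0.28 SE, adjusted p = 6.8e-06), and HMGA1 had 811 and 843 CPM in HLF, against 307 and 315 CPM in SNU475 (log2 fold change 1.41 ± 0.19 SE, adjusted p = 1.9e-04). AFP, alpha-fetoprotein, had 0.0994 and 0 CPM in HLF, against 2.08 and 1.90 CPM in SNU475, both low beside a mean of 2349 CPM in PLC/PRF/5. CD24, PROM1 and NES, used as progenitor markers, were lower in HLF, CD24 with 91.98 and 109 CPM in HLF, against 758 and 453 CPM in SNU475 and NES with 3.43 and 1.95 CPM in HLF, against 135 and 214 CPM in SNU475, and PROM1 had no count in HLF and 10.2 and 12.9 CPM in SNU475. Cancer-testis genes, silent in most adult tissues, were called in both directions, 6 higher and 5 lower of 24. Besides MAGEA4 and PAGE5, SSX1 was higher in HLF, with 264 and 208 CPM in HLF, against 0.619 and 1.496 CPM in SNU475, while MAGEA10 had no count in HLF and 65.2 and 60.8 CPM in SNU475, and CTAG2 none in HLF and 89.8 and 108 CPM in SNU475. PRAME was not called, at 40.3 and 36.9 CPM in HLF, against 25.7 and 37.4 CPM in SNU475, nor were MAGEA3 and MAGEA6, near-identical copies whose split is uncertain. Repeated copies also make the CT45A, GAGE, XAGE, PAGE and SSX counts uncertain.

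Glycolysis turns glucose into pyruvate and lactate. Of its list, 12 of 25 tested members were called, 10 higher and 2 lower in HLF, with a median log2 fold change of 0.51. Over all its tested members, with or without a count, the median was 0.49, with 0.22 without HLF library 1 and 0.27 without SNU475 library 2. LDHB, the lactate dehydrogenase subunit that favours pyruvate, had 324 and 233 CPM in HLF, against 8.27 and 2.70 CPM in SNU475 (log2 fold change 5.66 ± 0.43 SE, adjusted p = 2.5e-06). LDHA had 3353 and 2511 CPM in HLF, against 1558 and 1653 CPM in SNU475 (log2 fold change 0.87 ± 0.20 SE, adjusted p = 0.0055), and the LDHA call was lost without HLF library 1 (adjusted p = 0.063). ENO2 was higher in HLF (log2 fold change 2.07 ± 0.37 SE, adjusted p = 0.0012), HK1, hexokinase 1, had 162 and 136 CPM in HLF, against 327 and 377 CPM in SNU475 (log2 fold change -1.24 ± 0.21 SE, adjusted p = 7.9e-04), and ALDOC was lower too (-3.50). GAPDH, ENO1 and PKM were not called, PKM with 3389 and 2669 CPM in HLF, against 3335 and 2669 CPM in SNU475. For the glycolysis list, counts were 4 members called higher without HLF library 1 and 4 members called higher and 5 members called lower without SNU475 library 2. Of the genes for lactate and pyruvate handling, 14 of 25 tested members were called, 7 higher and 7 lower in HLF. EMB, a chaperone of lactate transporters, had 74.2 and 80.5 CPM in HLF, against 0 and 1.27 CPM in SNU475, TXNIP, which restrains glucose uptake, had 18.2 and 15.3 CPM in HLF, against 106 and 90.1 CPM in SNU475 (log2 fold change -2.55 ± 0.42 SE, adjusted p = 6.6e-04), the malic enzyme ME1, also an NRF2 target, had 32.9 and 30.8 CPM in HLF, against 169 and 146 CPM in SNU475, and PDK4 had 0.0497 and 0.105 CPM in HLF, against 4.39 and 3.45 CPM in SNU475. The lactate transporter SLC16A1 was not called (163 and 158 CPM in HLF, against 110.1 and 134 CPM in SNU475). Leaving out single libraries gave 2 members called higher without HLF library 1, 4 members called higher without SNU475 library 1 and 3 members called higher without SNU475 library 2 in the lactate and pyruvate list. Of 20 enzymes proposed to write or erase lactyl marks, AARS1 and KAT8 were called higher in HLF, AARS1 with 693 and 565 CPM in HLF, against 280.3 and 212 CPM in SNU475, and HDAC8 lower, while EP300, CREBBP and HDAC1 to HDAC3 were not called. The HDAC8 call was lost without either HLF library, or without SNU475 library 2, with adjusted p of 0.099 to 0.24.

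Lipid synthesis genes were called mostly higher in HLF: 14 of 26 tested members were called, 12 higher and 2 lower in HLF, with a median log2 fold change of 0.82. SREBF1, the regulator of fatty acid synthesis, had 324 and 306 CPM in HLF, against 82.7 and 21.2 CPM in SNU475 (log2 fold change 2.60 ± 0.63 SE, adjusted p = 0.0068), SCD, stearoyl-CoA desaturase, had 1115 and 774 CPM in HLF, against 272 and 178 CPM in SNU475 (log2 fold change 2.07 ± 0.30 SE, adjusted p = 3.0e-04), and FASN, fatty acid synthase, had 637 and 837 CPM in HLF, against 287 and 219 CPM in SNU475, with both HLF libraries above both SNU475 libraries for each. FADS2, the delta-6 desaturase, stood against them with 21.3 and 18.9 CPM in HLF, against 286 and 116 CPM in SNU475. HMGCS1 and SQLE of cholesterol synthesis were not called (0.23 and -0.12). With any single untreated library left out, fewer members of the cholesterol and fatty acid synthesis list were called higher. Its median then lay between 0.61 (without HLF library 1) and 0.86 (without HLF library 2). With lactate, 10 members of this list were called higher and 6 lower in HLF. Of the amino acid response genes, 10 of 22 tested members were called, 9 higher and 1 lower in HLF: ATF4, the factor that drives them, had 252 and 246 CPM in HLF, against 95.2 and 99.6 CPM in SNU475 (log2 fold change 1.36 ± 0.26 SE, adjusted p = 0.0019), PHGDH, the first enzyme of serine synthesis, had 206 and 133 CPM in HLF, against 66.4 and 48.9 CPM in SNU475, STC2 had 1233 and 1064 CPM in HLF, against 165 and 316 CPM in SNU475, and SLC7A11 was the exception, as given with the NRF2 genes. The median log2 fold change of the amino acid response list was 0.17. It was 0.04 without SNU475 library 2 and 0.32 without SNU475 library 1, and fewer members were called higher with any single untreated library left out. With lactate, 7 members of this list were called higher and 6 lower in HLF. Of the hypoxia targets, 8 of 22 tested members were called, 2 higher and 6 lower in HLF. This share of 36.4% lay beside 39.0% of all tested genes, and the median log2 fold change was 0.04. BNIP3 was higher in HLF (1.42), and CA12, a carbonic anhydrase, and EGLN3, an oxygen sensor, had no count in HLF, at least 934-fold and 646-fold lower. HIF1A was not called, at 328 and 474 CPM in HLF, against 499.6 and 382 CPM in SNU475. MT2A and MT1E, metal-binding metallothioneins, were higher in HLF (1.94 and 4.24), and MT1A and MT1F were called lower, both with no count in HLF, MT1A with 0.787 and 3.57 CPM and MT1F with 0.169 and 0.230 CPM in SNU475. However, the MT1A call was lost without HLF library 1 (adjusted p = 0.054) or HLF library 2 (adjusted p = 0.054) and the MT1F call was lost without HLF library 1 (adjusted p = 0.12) or HLF library 2 (adjusted p = 0.11) or SNU475 library 1 (adjusted p = 0.067) or SNU475 library 2 (adjusted p = 0.10), and DESeq2 called neither. Metallothionein genes are similar in sequence, so their split is uncertain.

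None of the 13 mitochondrially encoded mRNAs was called with edgeR, against 1 at an unadjusted p below 0.05. DESeq2 called 1, limma-voom 0 and edgeR without a count filter 9, lower in HLF in each case. Their sums were 92098 and 29306 CPM in the HLF libraries, against 65655 and 144745 CPM in the SNU475 libraries, following the mitochondrial shares given above. Leaving out single libraries gave 9 members called lower without HLF library 1 and 1 member called lower without SNU475 library 1 in the mitochondrially encoded mRNAs list. Of the nuclear genes of the respiratory chain, 9 of 28 tested members were called, 3 higher and 6 lower in HLF, with NDUFV1 at 117 and 97.01 CPM in HLF, against 514 and 486 CPM in SNU475 the widest of them. For the nuclear respiratory chain list, counts were 3 members called lower without HLF library 2.

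Few proliferation genes were called. Of the DNA replication genes, 6 of 23 tested members were called, 6 higher and 0 lower in HLF, and of the mitosis genes, 5 of 21 tested members were called, 5 higher and 0 lower in HLF, with medians of 0.23 and 0.42 on the log2 scale. Single libraries moved the DNA replication median to 0.09 (without HLF library 2), 0.14 (without SNU475 library 1) and 0.47 (without SNU475 library 2), and it was 0.39 without scaling factors. The mitosis median was 0.20 without SNU475 library 1 and 0.67 without SNU475 library 2. GINS2, of the replicative helicase complex, had 68.6 and 75.6 CPM in HLF, against 22.7 and 22.6 CPM in SNU475 (log2 fold change 1.67 ± 0.23 SE, adjusted p = 2.0e-04), and TPX2, of the mitotic spindle, had 640.3 and 728 CPM in HLF, against 337 and 375 CPM in SNU475. RB1, the retinoblastoma tumour suppressor, had 10.6 and 16.1 CPM in HLF, against 65.2 and 83.2 CPM in SNU475 (log2 fold change -2.48 ± 0.23 SE, adjusted p = 1.4e-05), CCND3, cyclin D3, was lower in HLF (-1.22), CDKN1C had 0.0994 and 0.263 CPM in HLF, against 8.89 and 7.08 CPM in SNU475, and CDK4 was higher (0.91). Of the p53 targets, 7 were called higher and 7 lower in HLF of 24 tested, and CDKN1A and MDM2 were not called, at 42.5 and 38.8 CPM in HLF, against 85.8 and 41.02 CPM in SNU475 for CDKN1A, but CDKN1A was called lower in HLF without SNU475 library 2 (adjusted p = 0.0061). Leaving out single libraries gave 1 member called lower without HLF library 2 and 2 members called higher without SNU475 library 1 in the DNA replication list. In the p53 targets list, single libraries moved counts to 4 members called higher without HLF library 1, HLF library 2 or SNU475 library 1.

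**Figure D4:**
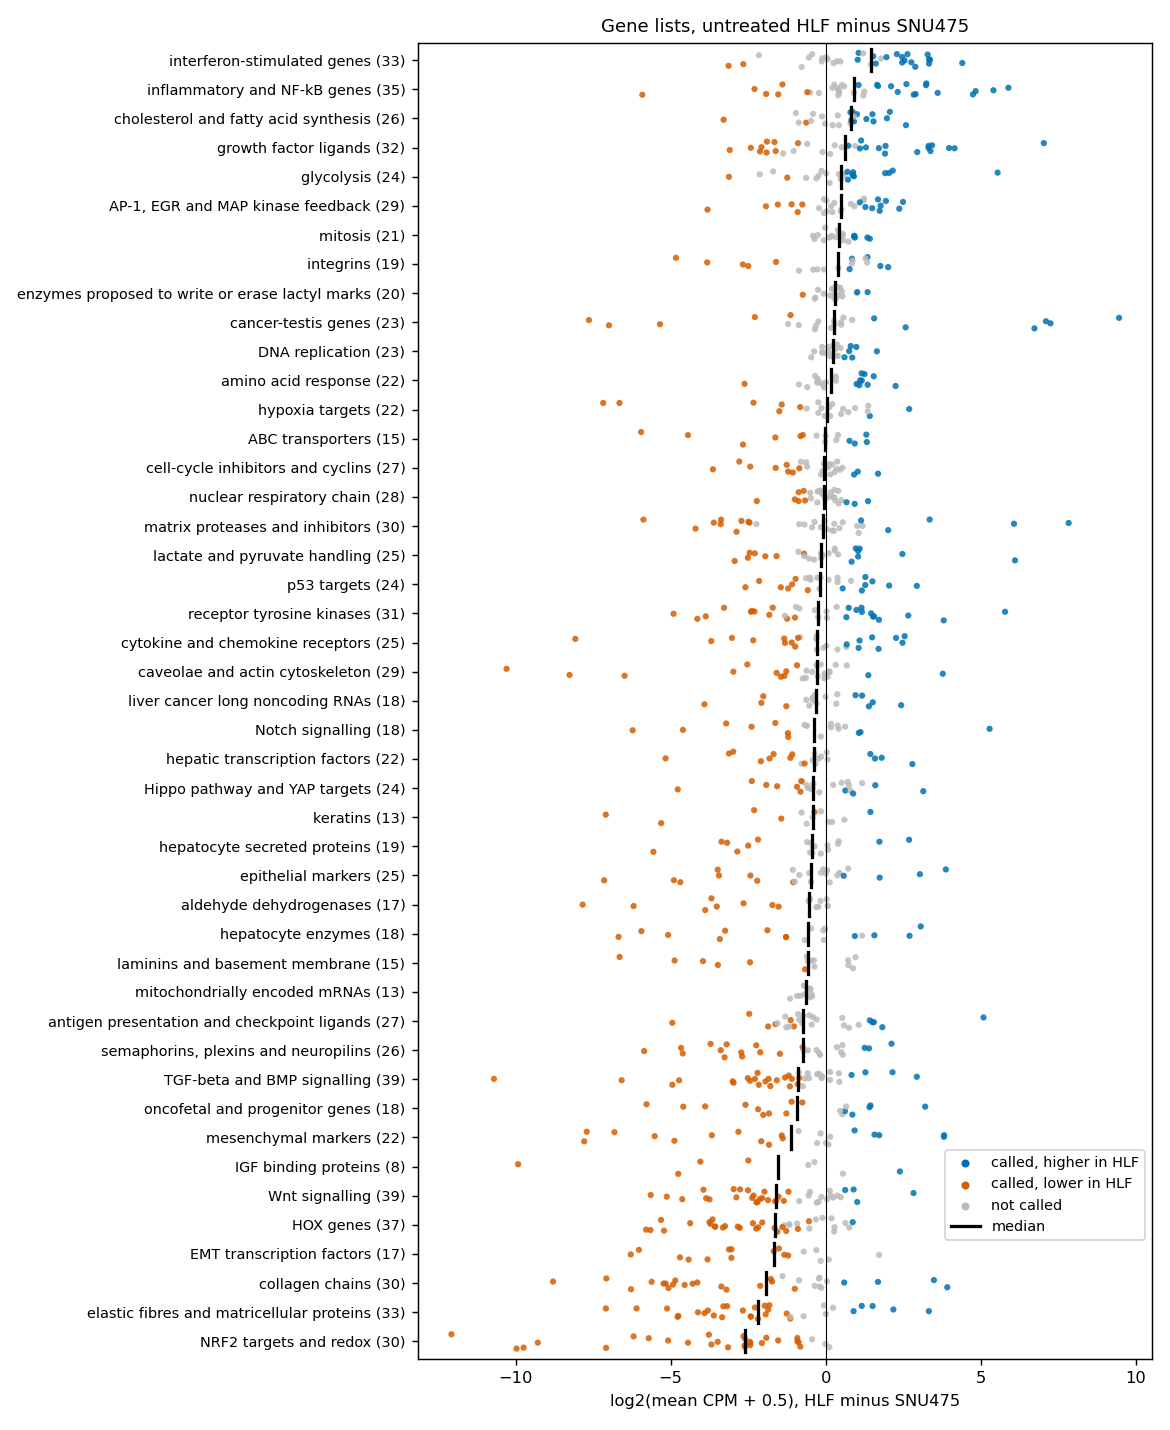
Differences between untreated HLF and SNU475 for the tested members of each gene list with 8 or more members seen, as log2 of mean CPM plus 0.5 in HLF minus the same in SNU475. Blue points were called higher in HLF, orange lower, and grey were not called, bars are medians and the number of members is in brackets. Interferon-stimulated and NF-kB genes stand at the top, and NRF2 targets, matrix genes and EMT factors at the bottom.

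Calls were not spread evenly over the genome. On chromosome 16, 40.9% of 741 tested genes with a count were called higher in HLF and 10.3% lower, with a median log2 fold change of 0.75. Chromosomes 4 and 22 leaned the same way, with 28.1% and 27.6% called higher. On chromosomes 8, 14, 15 and 7, 41.4%, 36.8%, 33.3% and 33.1% were called lower in HLF, with median log2 fold changes of -0.53, -0.48, -0.39 and -0.43. These shares are descriptions without a test, and DNA copy number was not measured here.

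**Figure D5:**
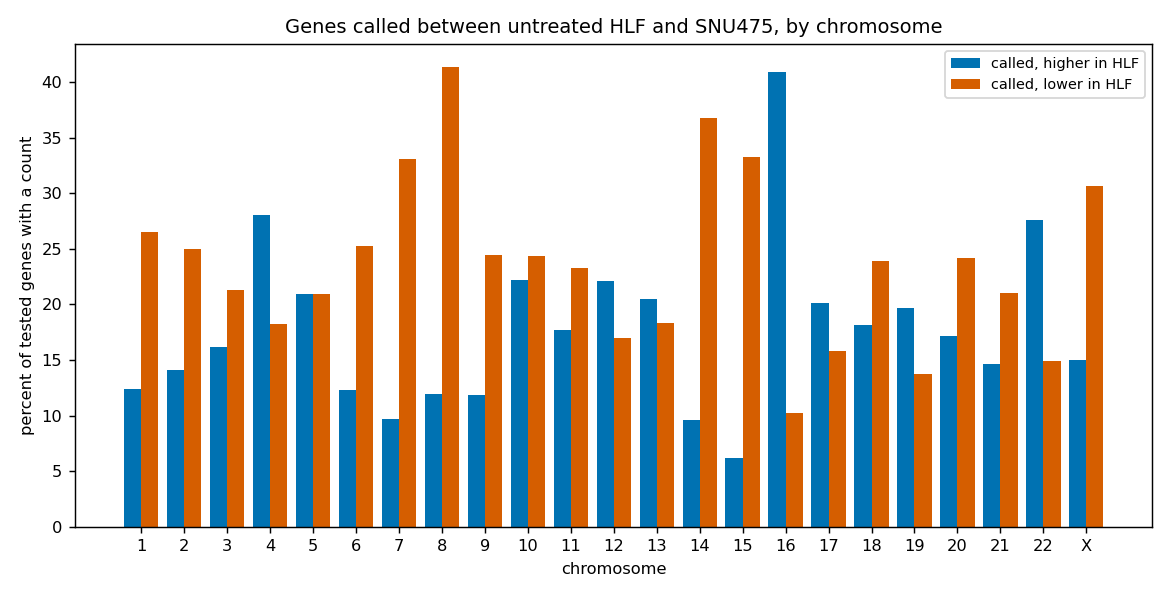
Percent of tested genes on each chromosome that were called higher (blue) or lower (orange) in untreated HLF than in SNU475. Chromosome 16 has the tallest blue bar and chromosome 8 the tallest orange bar.

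In gene order (RefSeq, GRCh38.p14, used for neighbours only, as the human build of the files is not given in the sources used here), 101 runs of 5 or more neighbouring tested genes were called in one direction, 28 higher and 73 lower in HLF. The longest held 16 genes of chromosome 11, lower in HLF, among them SYT12, and a run of 14 genes from NUDT8 to TESMIN, also lower, followed after a short gap that holds GSTP1 and NDUFV1. PPP1CA, a protein phosphatase subunit in the longest run, had 293 and 259 CPM in HLF, against 1189 and 1007 CPM in SNU475, and its neighbours RPS6KB2 and CORO1B had log2 fold changes of -1.98 and -1.72. The NRF2 target AKR1B10 lay in a run of 9 genes on chromosome 7 that also holds AKR1B1 and CALD1. A run on chromosome 5 held 11 protocadherin alpha genes, PCDHA2 to PCDHA12, all higher in HLF with a median log2 fold change of 5.44, while 7 protocadherin gamma genes were lower in HLF (-3.51). Genes of the alpha cluster share their last exons, as do those of the gamma cluster, so reads of these exons cannot be assigned to one member. PCDHA10 had 14.9 and 12.96 CPM in HLF, against 0.225 and 0.403 CPM in SNU475, and the PCDHA2 call was lost without HLF library 1 (adjusted p = 0.056) or HLF library 2 (adjusted p = 0.098) or SNU475 library 1 (adjusted p = 0.053) or SNU475 library 2 (adjusted p = 0.13). On chromosome 19, 9 zinc finger genes from ZNF43 to ZNF728 were higher in HLF, ZNF43 with 13.2 and 14.9 CPM in HLF, against 3.82 and 4.95 CPM in SNU475. At the end of that run, the ZNF728 call was lost without HLF library 2 (adjusted p = 0.060) or SNU475 library 1 (adjusted p = 0.066). The HOXC10 to HOXC13 genes formed part of a run of 7 that was lower in HLF. On the X chromosome, 9 genes from NUDT10 to XAGE2 were lower, GSPT2 with 9.34 and 8.80 CPM in HLF, against 23.3 and 22.95 CPM in SNU475. Of the genes near AXIN1, MRPL28 and PGAP6 were not called (0.18 and 0.62), and RGS11 was lower in HLF. Chromosome 16, which holds AXIN1, leaned higher in HLF as given above. A run of 5 genes on it, from POLR3K to NPRL3, was higher in HLF (median log2 fold change 0.93). LDHB had a neighbour that was not called, KCNJ8, and PYCR1 lay between MILIP and NOTUM, neither of them called.

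The same contrast was made in the libraries given lactate, which are other libraries of the same lines. With lactate, 7775 genes were called (42.4% of genes tested), 3400 higher and 4375 lower in HLF. Without scaling factors this split turned to 4386 higher and 3327 lower. Of the calls, 5942 were called in both conditions, 82.95% of the untreated calls and 76.4% of the calls with lactate. Of the shared calls, 5940 had the same direction and 2 the opposite one. Of the 27 NRF2 and redox calls, 26 were also called in the same direction with lactate, as were 21 of 22 collagen calls, 19 of 21 inflammatory calls and 16 of 19 interferon calls. The counts were 18 of 24 for growth factor ligands, 9 of 12 for glycolysis, and 10 of 14 each for lipid synthesis, lactate and pyruvate handling, and p53 targets. NQO1 had a log2 fold change of -3.88 with lactate and -3.77 without, MMP1 7.23 with and 7.88 without, and LDHB 5.70 with and 5.66 without. The difference between the line differences was tested as an interaction: 0 genes were called with edgeR, against 647 at an unadjusted p below 0.05, with 6 called by DESeq2 and 1 by limma-voom. Without a count filter edgeR called 74, and with SNU475 lactate library 1 left out it called 244.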

How the data were processed

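The authors deposited, for each library, a gene table with RSEM columns. It holds expected counts (estimated reads per gene, not normalized) and TPM (the deposited unit that divides by length), per the file headers. FastQC, STAR, RSEM and DESeq2 are named in the submitters' processing notes, which name mouse builds, while all identifiers in the deposited tables are human, so the human build is not given in the sources used here. RNA was extracted with TRIzol and made into stranded libraries (NEBNext Ultra Directional), per the labels' protocols. The deposited effective lengths served only as offsets in one alternative.

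Expected counts were rounded to whole numbers, and 47 rows that repeat pseudoautosomal genes under Y identifiers were merged with the X rows, which left 62710 genes. Genes passing edgeR's filter on low counts in all 12 libraries (18355) were fitted with edgeR 4.0.16 (quasi-likelihood, TMM factors from 0.794 to 1.165, 6 residual degrees of freedom), with 1 term for each of the 6 groups. Totals of the 4 untreated libraries ran from 18326569 to 21781934 estimated counts. TPM entered no test. Calls past 2-fold used edgeR's glmTreat. CPM are TMM-scaled. SEs are of the log2 fold change. The fits of DESeq2 1.42.0 and limma-voom (limma 3.58.1) were alternatives, and the test code was tested on simulated data. Counting intervals are exact at 95% and cover counting error only.

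The 52 gene lists (1187 genes, 1101 tested) and the comparison itself were chosen with earlier results of these data known. Named genes were the 15 protein-coding genes per direction with the largest fold, the 15 per direction with the highest CPM past 2-fold, list members with the smallest p or as examples of a role, members without a count in one line, and genes in runs of at least 5 neighbours. The rule asked for libraries that do not overlap and at least 10 CPM in the higher line for the first 2 kinds. Genes beside a run, and the neighbours of AXIN1, LDHB and PYCR1, were named after their values were seen. Some genes that these rules name are not reported here.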

Additional observations from a re-analysis of the deposited data

How the results depend on the processing

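In the untreated comparison 7163 genes were called. The alternatives gave 5702 (8 libraries of both lines only) to 7529 (limma-voom), and leaving out one library gave 5114 to 5833. Without scaling factors the median of all genes moved by 0.12 on the log2 scale untreated and by 0.27 with lactate, and 49.77% of 6912 untreated calls were higher in HLF, against 44.0% of the 7163 calls. Past 2-fold, 2456 to 3025 genes were called with one library left out, against 3467 with all. With lactate the range was 5047 to 8754, against 7775, with 5074 and 5047 without HLF lactate library 1 and 2. For the interaction, DESeq2 called 6 genes, limma-voom 1 and edgeR without a count filter 74, and leaving out one library gave 0 to 244. The cause was not tested. Over all lists, 604 members were called, and 481 to 544 with one library left out. The replicate block gave 7184 untreated calls and 612 list members. Replicate numbers come from the titles. Deviations of same-numbered libraries correlated at -0.0235 between HLF and SNU475 controls, but at 0.101 and 0.446 between lactate and control libraries within HLF and SNU475. The numbers are not treated as pairs between lines, and the block gave 0 interaction calls. Among named genes no called direction reversed. Alternatives other than left-out libraries ended the calls of FTH1, HDAC8, HOXC8, HOXD3, PCDHA2, CDH1, FGB, MT1A, MT1F and RGS2 in at least one setting and added KRT8, NFE2L2, ZNRF3 and GAPDH in at least one. Both DESeq2 and edgeR without a count filter called 5 glycolysis and 4 lipid synthesis genes lower, against 2 of each. Depth limits what can be said of genes near the filter on low counts.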

Other observations

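Semaphorins are guidance signals that plexin and neuropilin receptors read. In this list 16 of 26 tested members were called, 3 higher and 13 lower in HLF, with a median log2 fold change of -1.26 (-0.92 with the 2 members without a count in one line set at their bounds). Several receptors were lower in HLF: NRP1, which also binds VEGF, had 52.2 and 60.9 CPM in HLF, against 539 and 553 CPM in SNU475 (log2 fold change -3.27 ± 0.28 SE, adjusted p = 5.7e-06), NRP2 had 1.94 and 1.69 CPM in HLF, against 59 and 57.1 CPM in SNU475, and PLXND1 had 22.9 and 24.2 CPM in HLF, against 309 and 193 CPM in SNU475. PLXNA1 and PLXNB2 were not called (-0.21 and 0.55). Among ligands, SEMA3D was lower in HLF, with 1.14 and 0.685 CPM in HLF, against 21.04 and 15.02 CPM in SNU475, and SEMA3C was not called, with 155 and 203 CPM in HLF, against 124 and 129 CPM in SNU475.

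Among membrane pumps, ABCC3, which exports conjugated bile salts, had 2.19 and 1.26 CPM in HLF, against 60.01 and 35.6 CPM in SNU475, and ABCB6 had 0.497 and 0.685 CPM in HLF, against 65.3 and 68.7 CPM in SNU475, while ABCC4 was higher in HLF, with 88.8 and 105 CPM in HLF, against 41.5 and 35.3 CPM in SNU475. ANXA1, annexin A1, had 154 and 104 CPM in HLF, against 1234 and 807 CPM in SNU475. NEAT1, the scaffold RNA of paraspeckles, had 204 and 185 CPM in HLF, against 36.8 and 34.5 CPM in SNU475 (log2 fold change 2.45 ± 0.28 SE, adjusted p = 4.8e-05), and MALAT1, its neighbour in the genome, had 47.4 and 47.5 CPM in HLF, against 60.2 and 60.8 CPM in SNU475 and was not called.

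Of the 141 genes on in SNU475 and without a count in HLF, 96 also had no count in the HLF libraries given lactate, and 82 had under 0.5 CPM in untreated PLC/PRF/5. Of the 20 in the reverse direction, 7 also had no count in SNU475 with lactate, and 6 had under 0.5 CPM in PLC/PRF/5. The 2 genes called in opposite directions without and with lactate were RGS2 and the read-through gene HSPE1-MOB4, both named after their values were seen. RGS2, a regulator of G protein signalling, had 5.42 and 6.01 CPM in HLF, against 3.26 and 2.19 CPM in SNU475 without lactate. With lactate it had 2.86 and 3.57 CPM in HLF, against 4.85 and 10.2 CPM in SNU475. Untreated, the RGS2 call was lost without HLF library 1 (adjusted p = 0.10) or HLF library 2 (adjusted p = 0.14) or SNU475 library 2 (adjusted p = 0.22). It was also lost with limma-voom, with RLE scaling, with effective-length offsets, and in the fits of the 4 untreated or the 8 HLF and SNU475 libraries alone (adjusted p = 0.053 to 0.14). Neither gene was called in the interaction test (edgeR, adjusted p = 1.0 for RGS2 and 0.39 for HSPE1-MOB4).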
